A study of Rattus norvegicus with 9 samples.

Results

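Femora of rats given Desertliving Cistanche herb were compared with femora of untreated normal rats, to ask what still differed from normal bone after treatment. The comparison used 6 of the 9 libraries of the series, 3 labelled with the herb treatment (treated) and 3 labelled only as SD rats (control), chosen by their labels and not by any measured value. All were wild-type Sprague-Dawley rats, an outbred laboratory stock, and all libraries were made from poly(A) RNA of the femur. The series title places the herb in ovariectomized rats, that is, rats whose ovaries had been removed as a model of bone loss after the menopause. The sample labels do not repeat the operation for the treated rats, and the sources used here give no age, dose, route or duration. On the title's reading, the treated and control rats differed by the operation and the herb together, and the effects of the 2 cannot be told apart in this comparison. The 3 libraries of ovariectomized rats without the herb are therefore set beside it, as values. Those comparisons share the control libraries or the treated libraries with the one described, so no correlation or overlap between them is given.

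The ovaries are the main source of oestrogen, which restrains the osteoclasts that resorb bone and favours the survival of osteoblasts, the cells that build it. Osteoblasts secrete a matrix of type I collagen, which is hydroxylated and cross-linked by enzymes of the lysyl hydroxylase and lysyl oxidase families. In the femur these cells lie beside marrow, where red cells and granulocytes are made and where adipocytes fill space as blood formation recedes.

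The 6 libraries held 57166008 to 66531156 counts each, and 13886 genes were tested, those whose FPKM (fragments scaled by gene length and depth) averaged 1 or more over the 9 libraries. Levels are given in CPM, a gene's counts scaled to the size of its library, and differences as log2 fold changes of treated minus control with their standard error, both from edgeR. Transcripts of bone, cartilage and marrow were present in every library; the bone collagen Col1a1 stood at 1241 to 6036 CPM in the 6 libraries. The femur is a mixture of tissues, and in such a sample fewer cells of a type and less RNA per cell cannot be told apart. Control replicate 3 had the lowest adipocyte and the highest cartilage gene levels of the controls, control replicate 1 the lowest muscle level, and control replicate 2 the highest haemoglobin share. Treated replicate 2 stood apart from the other treated libraries, with higher cartilage and osteoblast and lower adipocyte levels. Results that turn on one of these libraries are given with and without it. The labels do not say that each library came from a separate rat, so p-values here reflect only how far these samples spread, which may be technical.

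No gene passed an adjusted p of 0.05 in edgeR's quasi-likelihood test with Benjamini-Hochberg adjustment: 0 of 13886 genes (0%), with a smallest adjusted p of 0.34. At an unadjusted p under 0.05 stood 1223 genes (8.81%), of which 563 were higher (4.05%) and 660 lower (4.75%) in treated femora. With at least a 2-fold estimate these were 158 genes (1.14%), 83 higher (0.598%) and 75 lower (0.54%). Of all genes, 50% had a higher and 50% a lower estimate. The treated and control libraries did not overlap in CPM for 1822 genes (13.1%), 880 higher (6.34%) and 942 lower (6.78%). DESeq2, which estimates the spread between libraries differently, called 153 genes (1.11%) at the same adjusted threshold, 65 higher (0.47%) and 88 lower (0.636%). Of these 153 genes, 33 were called again in each of 6 DESeq2 fits that left out a single treated or control library, 12 of them higher and 21 lower. A call in all 6 fits does not screen out rows of uncertain values. The 33 include Cpne1, with 0 counts in control replicate 2, and Rpl38 and Pirb, whose values are uncertain. The groups of genes below are described by the counts and percentages given here. A share near these percentages is no result about a group.

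**Figure D1:**
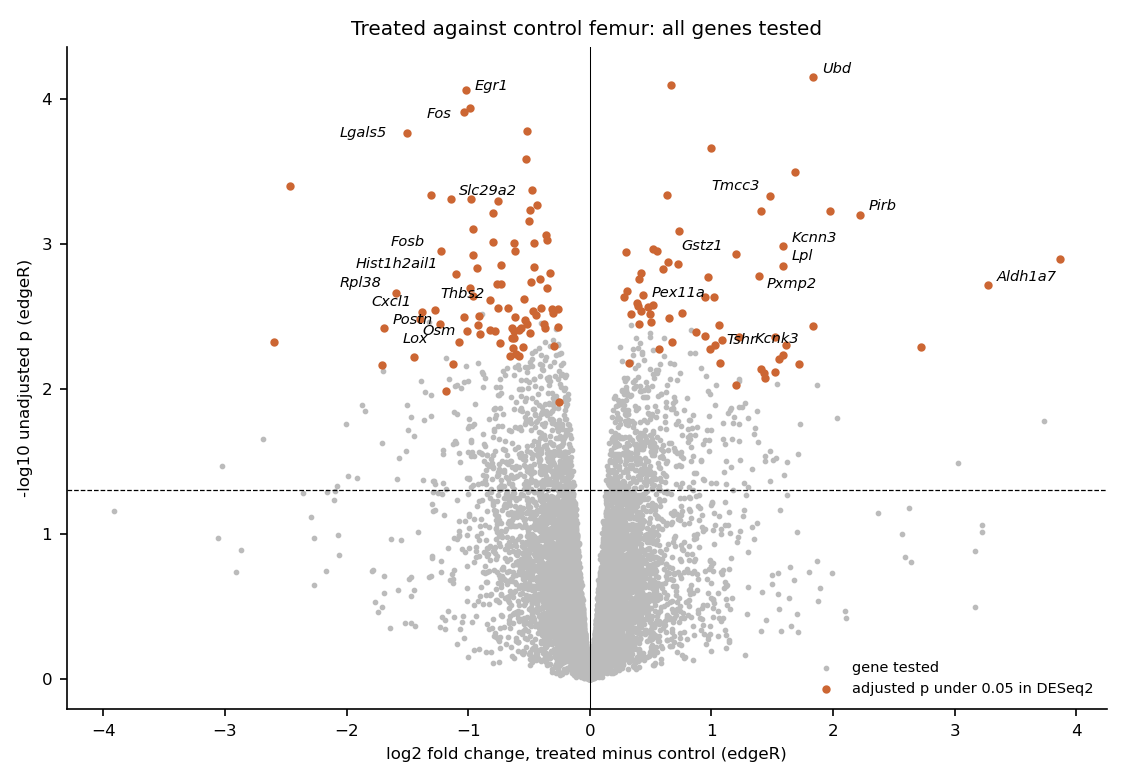
All 13886 genes tested, with the log2 fold change of treated minus control on the x axis and -log10 of edgeR's unadjusted p on the y axis; 14 genes beyond 4 log2 units are outside the axis. Orange points are genes called by DESeq2 (153 in all, of which Cpne1 and AABR07040944 are outside the axis), the dashed line is an unadjusted p of 0.05, and the labelled genes are among those with the smallest p of genes of at least 2-fold whose groups do not overlap, placeholder symbols left out.

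Immediate early genes, which cells transcribe within minutes of a stimulus and whose products include the AP-1 and EGR transcription factors, included several with lower levels in all treated libraries. Of 22 measured members, 18 had a lower estimate, 9 stood at an unadjusted p under 0.05 and all 9 of these were lower, against 4.75% of all genes. DESeq2 called 5 of the 22, all lower (against 0.636% of all genes): Egr1, Fos, Fosb, Ccn1 and Junb. The median difference was -0.28, against a median of 0.00 over all genes, and the members' summed level was 1621 to 1766 CPM in control and 1189 to 1246 CPM in treated libraries.

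Fos, the AP-1 subunit without which osteoclasts do not form (chromosome 6, 109300433 to 109303299, plus strand; coordinates as deposited, on a build that the sources used here do not give), was at 90.8, 103 and 100 CPM in control replicates 1, 2 and 3 and at 46.0, 52.0 and 45.7 CPM in treated replicates 1, 2 and 3. Every treated library lay at about the same level, well below every control library. The difference was -1.03 ± 0.15 (SE, n = 3 and 3), with an adjusted p of 0.34 in edgeR and 1.8e-06 in DESeq2. Egr1, a zinc finger transcription factor of the same early response (chromosome 18, 27657628 to 27661429, plus strand), was at 121, 125 and 121 CPM in control and at 65.7, 62.8 and 52.7 CPM in treated libraries. Its control libraries were nearly identical and its groups were far apart, with a difference of -1.02 ± 0.14 and adjusted p values of 0.34 in edgeR and 7.5e-07 in DESeq2. Fosb, a further AP-1 subunit, was at 48.7, 67.7 and 50.1 CPM in control and at 26.1, 22.6 and 22.4 CPM in treated libraries (-1.23 ± 0.25). Fos, Egr1 and Fosb were among the 33 genes called in every DESeq2 fit that left out a library. Ccn1 and Junb were each called in 3 of those 6 fits.

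The other members at an unadjusted p under 0.05 were the matricellular genes Ccn1 (-0.91 ± 0.22) and Ccn2 (-0.57 ± 0.20), the AP-1 subunits Junb (-0.61 ± 0.15) and Jun (-0.68 ± 0.19), the MAP kinase phosphatase Dusp1 (-0.70 ± 0.25) and the nuclear receptor Nr4a1 (-0.45 ± 0.19). For Nr4a1 the groups overlapped. For the other 8 they did not (8 of 22 members, against 6.78% of all genes lower). In ovariectomized rats without the herb, the list stood near control, with a median of 0.03. Fos in those libraries was at 117, 80.6 and 78.3 CPM, so that the treated libraries lay below both other groups. Its difference was -0.09 ± 0.15 for ovariectomized minus control and -0.94 ± 0.15 for treated minus ovariectomized. Egr1 in ovariectomized libraries was at 116, 77.0 and 92.5 CPM, below every control and above every treated library. Its differences were -0.36 ± 0.14 and -0.65 ± 0.14 in the same order. Fosb differed by 0.15 ± 0.25 in ovariectomized minus control.

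Some genes of inflammatory signalling had lower values as well. Of 21 measured cytokines, chemokines and receptors, 4 stood at an unadjusted p under 0.05, all lower (against 4.75% of all genes). The list's median was 0.06 and 12 members had a higher estimate. The 4 were the interleukin-1 receptor Il1r1, the neutrophil-attracting chemokines Cxcl1 and Cxcl2, and the macrophage chemokine Ccl3. Il1r1 (chromosome 9, 46962288 to 47036670, plus strand) was at 19.4, 15.7 and 17.4 CPM in control and at 9.06, 8.20 and 9.28 CPM in treated libraries. The treated values were close together and all below the lowest control value, with a difference of -0.98 ± 0.14 and adjusted p values of 0.34 in edgeR and 2.2e-06 in DESeq2. Cxcl1 was at 2.52, 3.17 and 3.15 CPM in control and at 1.49, 0.93 and 0.97 CPM in treated libraries (-1.38 ± 0.33). Osm, which encodes the cytokine oncostatin M, was at 59.2, 27.9 and 37.2 CPM in control and at 22.2, 19.8 and 18.5 CPM in treated libraries (-1.04 ± 0.25). For Osm the control libraries varied widely, and without control replicate 1 the difference was -0.69. Without control replicate 1, 5 members of the inflammatory list stood at an unadjusted p under 0.05 with a higher and 2 with a lower estimate.

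Genes of red cell formation had lower estimates throughout. All 24 measured erythroid genes had a lower estimate in treated femora, 20 stood at an unadjusted p under 0.05 (all lower, against 4.75% of all genes), and for 14 the groups did not overlap (against 6.78%). Their median difference was -0.46, and their summed level was 10689 to 17235 CPM in control, 11097 to 12378 CPM in ovariectomized and 8995 to 10838 CPM in treated libraries. The haemoglobin genes, 11 rows of the table, took 12.4%, 17.1% and 12.3% of counts in control replicates 1, 2 and 3 and 8.07%, 10.5% and 8.36% in treated replicates 1, 2 and 3. All treated libraries were below all control libraries, and the mean difference was -4.94 percentage points, from 13.9% ± 2.74 to 8.98% ± 1.32 (SD, n = 3 each; exact permutation p = 0.1, two-sided, the smallest that 3 against 3 can give). In ovariectomized rats the share was 10.6% ± 1.09 (SD, n = 3), between the other means. Ovariectomized replicates 1, 2 and 3 stood at 10.0%, 11.8% and 9.87%, all below every control library and overlapping the treated libraries. The ovariectomized minus control difference was -3.34 percentage points, with the same exact permutation p of 0.1. Without control replicate 2 the erythroid median was -0.28 and 11 genes stood at an unadjusted p under 0.05; without treated replicate 1 or 3 these were 10 and 12 genes.

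Among the erythroid regulators, Gata1, the transcription factor that directs red cell differentiation, was at 55.3, 73.2 and 62.7 CPM in control and at 47.4, 50.2 and 47.4 CPM in treated libraries (-0.40 ± 0.10). Its partner Tal1 differed by -0.42 ± 0.11 and the erythroid factor Klf1 by -0.48 ± 0.13, in each case without overlap of the groups. Hemgn, a nuclear protein of maturing red cells, differed by -0.63 ± 0.17, and Epb42, a membrane skeleton protein, by -0.61 ± 0.16; these were the erythroid genes that DESeq2 called, and neither call held when some single treated libraries were left out. Alas2, which catalyses the first and rate-limiting step of haem synthesis in red cells, was at 955, 1273 and 771 CPM in control and at 600, 738 and 616 CPM in treated libraries. The treated values all lay below the lowest control value, with a difference of -0.62 ± 0.17, or -0.41 without control replicate 2. Hba-a1, an alpha globin gene (chromosome 10, 15602794 to 15603649, minus strand), was at 50199, 65704 and 50703 CPM in control and at 32732, 36386 and 29615 CPM in treated libraries. Its difference of -0.75 ± 0.18 was called in every DESeq2 fit that left out a library. Reads can be split between the near-identical globin copies, so single globin genes are uncertain: Hba-a3 stood at 962, 26.8 and 572 CPM in the control libraries alone.

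A larger difference than that of any erythroid list member was measured for a gene outside the list. Lgals5, a galectin known from rat reticulocytes (chromosome 10, 66225995 to 66229311, minus strand), was at 686, 902 and 574 CPM in control and at 301, 182 and 278 CPM in treated libraries. The highest treated value was far below the lowest control value, and the order of the treated libraries was not that of the haemoglobin share, which was highest in treated replicate 2 while Lgals5 was lowest there. The difference was -1.51 ± 0.24, with an adjusted p of 0.34 in edgeR and 7.5e-07 in DESeq2, and it was called in all 6 DESeq2 fits that left out a library. In ovariectomized libraries Lgals5 was at 458, 630 and 603 CPM, overlapping control, and the treated minus ovariectomized difference was -1.15 ± 0.23. Car2, the carbonic anhydrase that both red cells and osteoclasts use, was at 1515, 2250 and 1843 CPM in control and at 1106, 1367 and 1264 CPM in treated libraries (-0.59 ± 0.15). Ftl1, the ferritin light chain, which stores iron, was at 134, 160 and 137 CPM in control and at 101, 97.3 and 111 CPM in treated libraries (-0.48 ± 0.08). Slc29a2, a nucleoside transporter, was at 15.8, 15.9 and 22.7 CPM in control and at 7.43, 7.14 and 10.1 CPM in treated libraries (-1.14 ± 0.21). Car2, Ftl1 and Slc29a2 were lower in every treated than in every control library. Lgals5, Car2 and Ftl1 were set beside the erythroid genes after their values were seen.

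Some red cell genes share a short promoter motif, and example windows are shown here for their sequence only. Whether the motif has a part in the lower values was not tested. GATA factors recognise AGATAA or its reverse complement TTATCT. The 250 bases before the start of 18 of the 25 listed erythroid genes could be matched in RefSeq's table of promoters (build GRCr8). Of these, 8 (44.4%) held the motif on either strand in any of their promoters. Among all 33469 promoters, counted singly, 10.3% held it, which is an unlike measure. The share of the list says nothing about treated against control femora. The 8 were Add2, Alas2, Epor, Fech, Hemgn, Rhd, Sptb and Trim10. The windows of Alas2 (chrX:22895200-22895449, plus strand), of Sptb, the red cell spectrin gene (chr6:101170279-101170528, minus strand), and of Lgals5 (chr10:64355138-64355387, minus strand) read as follows, 5′ to 3′, with the match in capitals.
Alas2: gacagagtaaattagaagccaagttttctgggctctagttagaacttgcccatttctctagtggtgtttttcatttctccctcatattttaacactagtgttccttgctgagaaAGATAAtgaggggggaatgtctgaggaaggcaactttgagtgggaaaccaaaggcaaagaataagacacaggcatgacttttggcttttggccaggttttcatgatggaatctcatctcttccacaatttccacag
Sptb: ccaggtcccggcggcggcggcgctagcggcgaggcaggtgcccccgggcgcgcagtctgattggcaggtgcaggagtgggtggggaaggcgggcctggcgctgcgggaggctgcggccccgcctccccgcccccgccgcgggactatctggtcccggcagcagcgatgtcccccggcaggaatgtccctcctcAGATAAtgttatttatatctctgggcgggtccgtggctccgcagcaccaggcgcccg
Lgals5: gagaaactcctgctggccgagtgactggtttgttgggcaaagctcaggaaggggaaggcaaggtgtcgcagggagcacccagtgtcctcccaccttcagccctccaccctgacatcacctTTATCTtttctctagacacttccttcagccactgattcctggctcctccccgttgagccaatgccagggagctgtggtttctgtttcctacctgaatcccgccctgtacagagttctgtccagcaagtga
The base of the match nearest the start lies 131 bases before it in Alas2, 52 in Sptb and 125 in Lgals5, where the match is on the reverse strand. A match describes the letters of the window and shows no binding.

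Genes of bone matrix had lower estimates, most of them within the spread between libraries. All 19 measured osteoblast and bone matrix genes had a lower estimate, with a median difference of -0.67. Among them 7 stood at an unadjusted p under 0.05 (against 4.75% of all genes lower) and for 7 the groups did not overlap (against 6.78%). Their summed level was 6695 to 11542 CPM in control, 3857 to 10755 CPM in ovariectomized and 3357 to 8720 CPM in treated libraries, so the groups overlapped as a whole. Without control replicate 3 the median was -0.44 and 1 gene stood at an unadjusted p under 0.05, and without treated replicate 2 the median was -1.14 with 10 genes. Without treated replicate 1, and likewise without treated replicate 3, it was 2 genes. Postn, the matricellular protein periostin of periosteum (chromosome 2, 143656793 to 143688087, plus strand), was at 68.5, 84.2 and 152 CPM in control and at 23.1, 41.5 and 29.9 CPM in treated libraries. Its groups did not overlap, and the difference was -1.69 ± 0.43, called by DESeq2 (adjusted p = 0.0044) with all libraries but in 3 of the 6 fits that left out a library. Ibsp, the integrin-binding sialoprotein of mineralising matrix, was at 661, 640 and 972 CPM in control and at 210, 322 and 303 CPM in treated libraries (-1.44 ± 0.51). In ovariectomized libraries Ibsp was at 719, 134 and 392 CPM, spanning both groups. Bmp3, a growth factor of bone, differed by -1.001 ± 0.34, and Alpl, the alkaline phosphatase of mineralising osteoblasts, by -0.42 ± 0.15.

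The genes most often measured as bone markers did not differ beyond the spread between libraries. Col1a1, the main collagen of bone, was at 2931, 3987 and 6036 CPM in control and at 2014, 4984 and 1241 CPM in treated libraries. Bglap, which encodes osteocalcin, was at 210, 214 and 375 CPM in control and at 165, 373 and 76.5 CPM in treated libraries. In both genes the groups overlapped, treated replicate 2 stood within the control range, and the differences were -0.65 ± 0.69 and -0.38 ± 0.73 (adjusted p = 0.82 and 0.90 in edgeR). Without treated replicate 2 they were -1.41 and -1.14, and without treated replicate 3 Bglap was at 0.01. Runx2, the transcription factor that commits cells to the osteoblast lineage, differed by -0.32 ± 0.17. The osteocyte list had 9 measured members, all with a lower estimate, and a median of -0.37. Of the 9, 1 stood at an unadjusted p under 0.05 (Phex, -0.99 ± 0.41), against 4.75% of all genes lower. Dmp1, a matrix protein of osteocytes, was at 221, 290 and 179 CPM in control and at 106, 147 and 150 CPM in treated libraries (-0.78 ± 0.39, adjusted p = 0.61 in edgeR).

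Among enzymes that modify and cross-link collagen, 17 of 19 measured members had a lower estimate. Of the 19, 11 stood at an unadjusted p under 0.05 (against 4.75% of all genes lower) and for 10 the groups did not overlap (against 6.78%), all lower. The median was -0.64, and DESeq2 called 4, all lower (against 0.636% of all genes). Lox, the lysyl oxidase that starts collagen cross-links, was at 9.63, 20.4 and 17.0 CPM in control and at 5.63, 8.02 and 6.37 CPM in treated libraries (-1.23 ± 0.31). Plod2, the lysyl hydroxylase of the collagen telopeptide, was at 116, 101 and 140 CPM in control and at 42.5, 77.6 and 42.9 CPM in treated libraries (-1.13 ± 0.32). In both the groups did not overlap, and treated replicate 2 was the highest of its group. The prolyl hydroxylases P3h2 (-0.92 ± 0.23) and P4ha1 (-0.64 ± 0.17) were the other members that DESeq2 called. Of the 6 fits that left out a library, P3h2 was called in 0, Lox and P4ha1 in 2 and Plod2 in 3. Without control replicate 3 the median was -0.42 with 5 genes at an unadjusted p under 0.05, without treated replicate 1 these were 5 genes, and without treated replicate 3 they were 7.

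The fibroblast, periosteum and tendon list was divided. Of 20 measured members, 7 stood at an unadjusted p under 0.05, all lower and none overlapping, against 4.75% and 6.78% of all genes. The median over the list was -0.17, or -0.35 without control replicate 1 and -0.27 without control replicate 2. Col6a1, a chain of the collagen VI of the pericellular matrix (chromosome 20, 12658065 to 12675561, plus strand), was at 95.5, 118 and 132 CPM in control and at 62.7, 64.2 and 71.8 CPM in treated libraries. All treated values were below the lowest control value; the difference of -0.80 ± 0.16 was called in every DESeq2 fit that left out a library (adjusted p = 0.0018 with all libraries). Thbs2, a matricellular thrombospondin, was at 62.0, 62.7 and 113 CPM in control and at 36.5, 36.1 and 25.4 CPM in treated libraries (-1.28 ± 0.31). Thbs4, a thrombospondin of tendon, differed by -1.01 ± 0.26, and Lum, the small proteoglycan lumican, by -0.56 ± 0.17. The count of 7 lower members ranged from 6 to 8 with single libraries left out. In ovariectomized rats the median of this list was 0.03, and Thbs4 there was at 106, 114 and 145 CPM, with a treated minus ovariectomized difference of -1.03 ± 0.26.

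**Figure D2:**
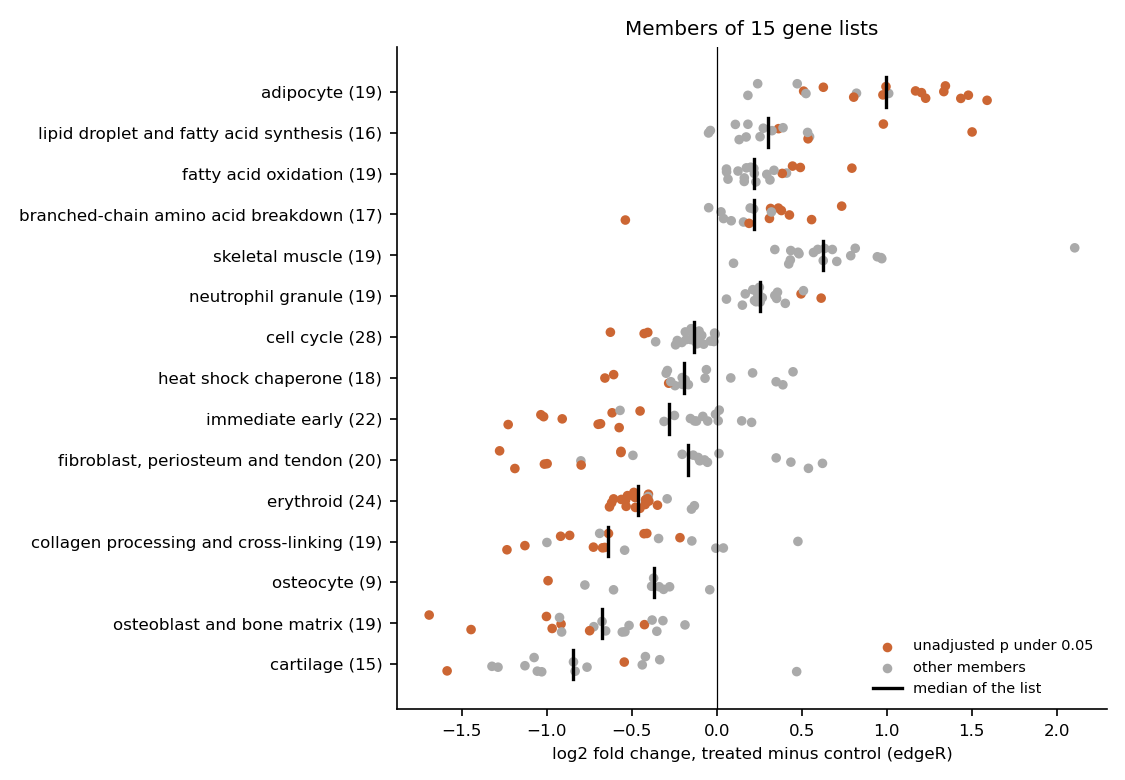
Each point is a member of 1 of 15 gene lists (number measured in brackets), placed by its log2 fold change of treated minus control; orange points have an unadjusted p under 0.05 in edgeR and black bars are list medians. All 19 adipocyte members lie to the right of 0 with a median of 0.996, and all 24 erythroid members to the left with a median of -0.46.

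Adipocyte genes had higher estimates. All 19 measured members had a higher estimate, 13 stood at an unadjusted p under 0.05 (against 4.05% of all genes) and for 13 the groups did not overlap (against 6.34%), with a median difference of 0.996. Their summed level was 937 to 2001 CPM in control, 2356 to 3442 CPM in ovariectomized and 2260 to 3641 CPM in treated libraries. Lpl, the lipoprotein lipase that frees fatty acids from circulating triglyceride (chromosome 16, 22537056 to 22561496, minus strand), was at 128, 136 and 65.5 CPM in control and at 365, 211 and 417 CPM in treated libraries. The lowest treated value was above the highest control value, and the difference of 1.59 ± 0.34 (adjusted p = 0.43 in edgeR, 0.00047 in DESeq2) was called in every DESeq2 fit that left out a library. In ovariectomized libraries Lpl was at 300, 400 and 254 CPM, with differences of 1.53 ± 0.34 for ovariectomized minus control and 0.06 ± 0.33 for treated minus ovariectomized.

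Pparg, the transcription factor that directs adipocyte formation, was at 22.7, 22.6 and 17.7 CPM in control and at 33.0, 25.7 and 38.6 CPM in treated libraries (0.63 ± 0.20). Retn, which encodes the secreted protein resistin, was at 55.7, 51.8 and 23.3 CPM in control and at 121, 77.2 and 108 CPM in treated libraries (1.23 ± 0.32). Gpd1, which makes the glycerol backbone of triglyceride, differed by 1.20 ± 0.36. Lpl, Retn and Gpd1 were the 3 members that DESeq2 called (against 0.47% of all genes higher). Of the 6 fits that left out a library, Lpl was called in 6, Retn in 4 and Gpd1 in 2. In each of these genes control replicate 3 was the lowest library and treated replicate 2 the lowest of the treated. The lipid droplet protein Plin1, with 116, 97.7 and 22.8 CPM in control and 258, 135 and 269 CPM in treated libraries (1.48 ± 0.55), had the same order. Without treated replicate 1 the list had 4 members at an unadjusted p under 0.05, and without treated replicate 3 it had 7; the median was 0.71 to 1.25 over the fits that left out a library. The treated minus ovariectomized median of the list was -0.08, and its ovariectomized minus control median was 1.09.

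Genes of fat and amino acid use had smaller, mostly higher values. Of 19 measured fatty acid oxidation genes all had a higher estimate, with a median of 0.22 and 4 at an unadjusted p under 0.05 (against 4.05% of all genes higher). Hadh, of the mitochondrial pathway, was at 40.8, 35.9 and 33.6 CPM in control and at 58.8, 42.9 and 53.5 CPM in treated libraries, without overlap. It differed by 0.49 ± 0.13, and Cpt1a, which admits fatty acids to the mitochondrion, by 0.45 ± 0.18. The count of 4 was 8 without control replicate 2 and 10 without treated replicate 2. Of 17 genes of branched-chain amino acid breakdown, 8 stood at an unadjusted p under 0.05 with a higher and 1 with a lower estimate (against 4.05% and 4.75% of all genes). The median was 0.22, and the 8 were 5 without treated replicate 1 and 4 without treated replicate 3. Aldh6a1, an enzyme of valine breakdown, was at 42.7, 45.2 and 34.9 CPM in control and at 70.7, 54.7 and 79.1 CPM in treated libraries (0.74 ± 0.14), without overlap. The exception was Bcat1, the cytosolic aminotransferase, at -0.54 ± 0.21. Among 16 measured genes of lipid droplets and fatty acid synthesis, 14 had a higher estimate. Of the 16, 4 stood at an unadjusted p under 0.05, all higher (against 4.05% of all genes), led by the desaturase Scd (0.98 ± 0.35). Without treated replicate 3 none did. Dgat2 was listed both here and among the adipocyte genes.

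**Figure D3:**
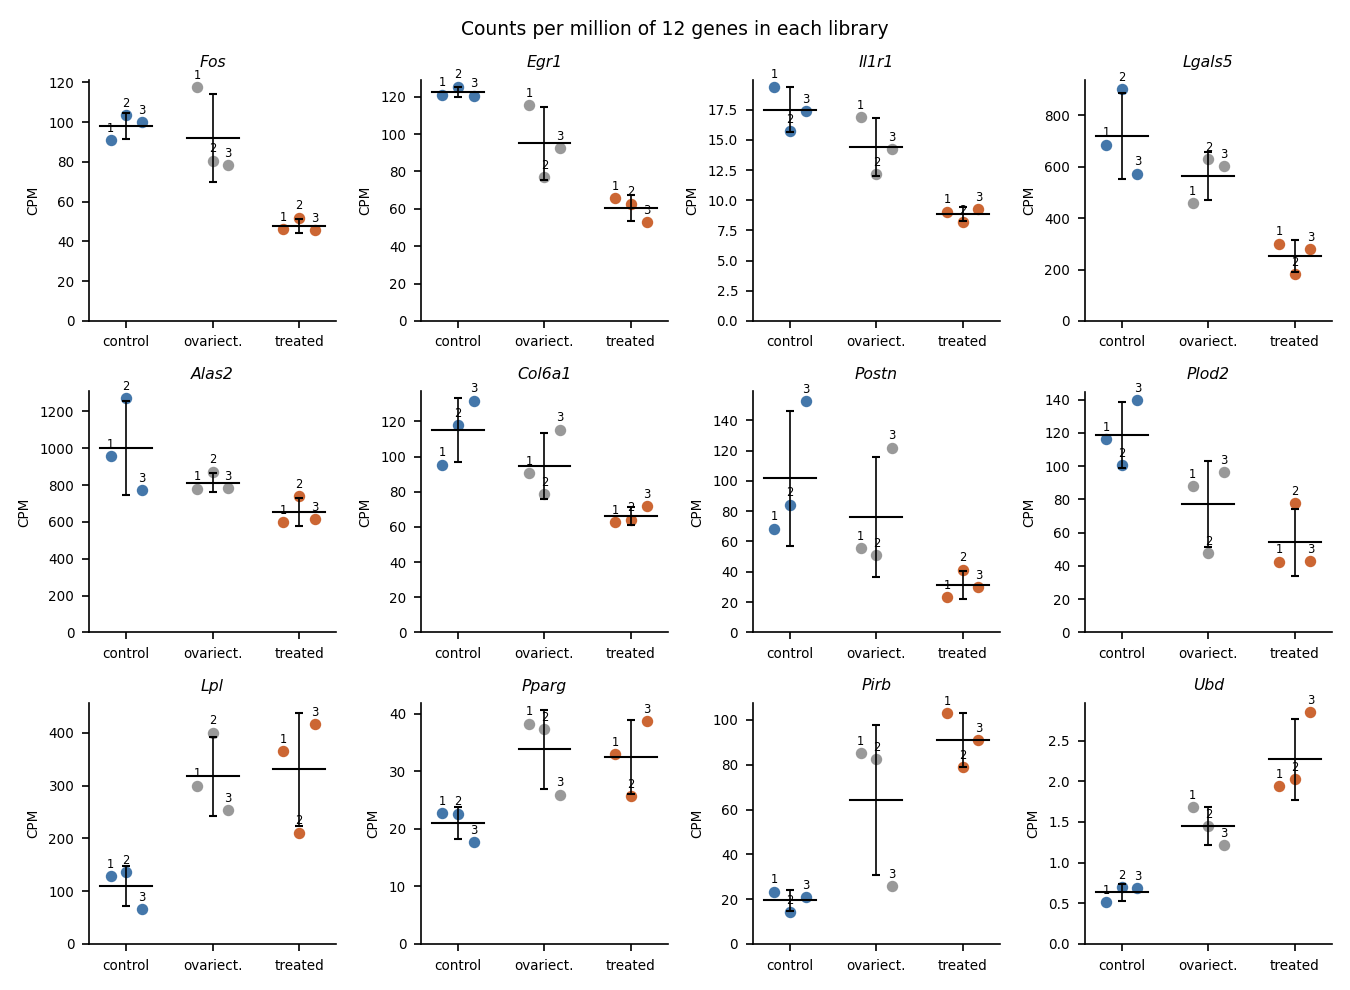
CPM of 12 genes in each library (numbers are replicates; bars are the mean and SD of 3 libraries) in control, ovariectomized and treated femora. Fos, Egr1, Il1r1 and Lgals5 are lowest in all 3 treated libraries, whereas Lpl and Pparg lie at similar levels in ovariectomized and treated femora, above control.

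Several genes outside the adipocyte list were among those of smallest p that were higher by at least 2-fold. Ubd, the ubiquitin-like modifier induced by inflammatory cytokines (chromosome 20, 1876173 to 1897814, minus strand), was at 0.52, 0.70 and 0.69 CPM in control and at 1.94, 2.02 and 2.85 CPM in treated libraries. Its level was low in all libraries, the groups were far apart, and the difference was 1.84 ± 0.25 (adjusted p = 0.34 in edgeR, 6.1e-06 in DESeq2). Pirb, a paired immunoglobulin-like receptor that inhibits myeloid and B cells (chromosome 1, 64074231 to 64081438, plus strand), was at 23.4, 14.1 and 21.0 CPM in control and at 103, 78.8 and 91.0 CPM in treated libraries. All treated libraries were several times above all control libraries, with a difference of 2.23 ± 0.42; ovariectomized libraries stood at 85.1, 82.4 and 25.8 CPM, the third of them near control. Pirb belongs to a family of near-identical receptor genes among which reads can be split, so its value is uncertain. The membrane protein gene Tmcc3 differed by 1.48 ± 0.27, the potassium channel genes Kcnn3 and Kcnk3 by 1.59 ± 0.32 and 1.83 ± 0.46, the tyrosine breakdown enzyme Gstz1 by 1.20 ± 0.25 and the thyrotropin receptor Tshr by 1.06 ± 0.26. Aldh1a7, an aldehyde dehydrogenase, had the largest estimate of the genes named by this rule, 3.27 ± 0.74, from 0.13, 0.09 and 0.49 CPM in control to 3.72, 0.91 and 2.39 CPM in treated libraries. In FPKM, its mean was 0.15 in control, 1.81 in ovariectomized and 1.52 in treated libraries. Ubd (0.49), Kcnk3 (0.59), Kcnn3 (0.86) and Tmcc3 (0.96) also had a control mean under 1 FPKM. All of these passed the filter of 1 FPKM through the groups where they were high. A gene with the same control mean and lower values in the other groups would not have been tested. The peroxisomal membrane genes Pxmp2 and Pex11a differed by 1.39 ± 0.30 and 1.02 ± 0.24. Tmcc3, Kcnn3, Kcnk3, Tshr, Pxmp2 and Pex11a had the library order of the adipocyte genes, with control replicate 3 the lowest control and treated replicate 2 the lowest treated library. In ovariectomized minus control these 6 differed by 0.81 (Pex11a) to 1.62 (Kcnk3). The part of fat content in their values was not tested. Pim3, a survival kinase chosen after its values were seen, was at 16.1, 16.7 and 16.7 CPM in control and at 28.0, 23.5 and 27.0 CPM in treated libraries (0.67 ± 0.09). Ubd, Tmcc3, Pirb, Kcnn3, Lpl and Pim3 were called in every DESeq2 fit that left out a library.

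Rpl38 and Hist1h2ail1, a ribosomal protein and a histone gene, were also among the 12 genes of smallest unadjusted p that were lower by at least 2-fold without overlap. Rpl38 was at 22.5, 63.5 and 49.5 CPM in control and at 14.0, 13.9 and 16.8 CPM in treated libraries (-1.60 ± 0.37). The 30 measured cytosolic ribosomal protein genes as a list had a median of -0.02 with none at an unadjusted p under 0.05. Ribosomal protein and histone genes have near-identical copies that can share reads, so both values are uncertain.

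Osteoclast genes and the genes of the RANKL pathway, through which osteoblast lineage cells induce osteoclasts, had list medians near 0. The osteoclast list had 14 measured members, 6 with a higher and 8 with a lower estimate. Its median was -0.05, or 0.01 without control replicate 3, and only Car2 stood at an unadjusted p under 0.05 (against 8.81% of all genes). The summed level of the list was 3534 to 4014 CPM in control and 2893 to 3432 CPM in treated libraries, without overlap. In ovariectomized libraries it was 3067 to 3643 CPM. Car2, whose levels are given above beside the red cell genes, made up a large part of this sum in the control and treated libraries. The separation of the sums is therefore no result about the other members, and the sum without Car2 is not given. Ctsk, the cathepsin that degrades bone collagen, was at 420, 208 and 593 CPM in control and at 186, 454 and 319 CPM in treated libraries, and Acp5, the tartrate-resistant acid phosphatase, at 263, 201 and 436 CPM and at 138, 338 and 191 CPM. The groups overlapped in both, and the differences were -0.35 ± 0.48 and -0.43 ± 0.43 (adjusted p = 0.86 and 0.81 in edgeR). The Ctsk estimate was 0.02 without control replicate 3. Tnfrsf11b, the decoy receptor osteoprotegerin that blocks RANKL, was at 31.4, 14.0 and 27.0 CPM in control and at 9.69, 21.5 and 6.96 CPM in treated libraries. Its groups overlapped through treated replicate 2, and its difference was -0.92 ± 0.51, or -1.54 without that library. Tnfsf11, the gene of RANKL itself, was below the filter with 0 to 87 counts per library and was not tested. Of the 15 measured genes of this pathway list, Fos was lower and Sema4d, a semaphorin made by osteoclasts, higher (0.34 ± 0.12) at an unadjusted p under 0.05.

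Of 8 measured hormone receptors and oestrogen-responsive genes, 4 stood at an unadjusted p under 0.05, against 8.81% of all genes. Vdr, the vitamin D receptor, was at 39.6, 31.2 and 65.5 CPM in control and at 16.9, 22.2 and 23.6 CPM in treated libraries (-1.12 ± 0.36), and Pth1r, the parathyroid hormone receptor, at 53.1, 43.2 and 85.4 CPM and at 23.8, 41.3 and 27.8 CPM (-0.97 ± 0.36). Both were lower in every treated than in every control library, and both were above an unadjusted p of 0.05 without control replicate 3 and without treated replicate 1. Ghr, the growth hormone receptor, was at 46.5, 37.2 and 27.0 CPM in control and at 88.2, 55.6 and 91.6 CPM in treated libraries (1.09 ± 0.28). Esrra, an orphan receptor related to the oestrogen receptors, was at 26.5, 24.2 and 27.6 CPM in control and at 35.1, 32.0 and 32.2 CPM in treated libraries (0.34 ± 0.08). DESeq2 called Ghr and Esrra with all libraries. Of the 6 fits that left out a library, Ghr was called in 2 and Esrra in 0. Esr1, the oestrogen receptor alpha, held 40 to 233 counts per library and was below the filter.

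Among signalling pathways of bone formation, 2 of 25 measured Wnt genes stood at an unadjusted p under 0.05, the effector Ctnnb1 (-0.30 ± 0.11) and the receptor Fzd4 (0.59 ± 0.23), with a list median of -0.17. As 8.81% of all genes did, the Wnt count is no result about the list. Of 25 genes of BMP and TGF-beta signalling 3 stood at an unadjusted p under 0.05, all lower (against 4.75% of all genes): the ligands Tgfb2 (-0.77 ± 0.23) and Bmp3 and the receptor Bmpr1a (-0.49 ± 0.21), with a median of -0.14.

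Heat shock chaperone genes, which keep proteins folded under stress, had a median of -0.19, with a lower estimate in 13 of 18 and 3 at an unadjusted p under 0.05, all lower (against 4.75% of all genes). Hsph1, a chaperone of the HSP110 family, was at 91.8, 84.2 and 140 CPM in control and at 58.5, 71.3 and 70.5 CPM in treated libraries (-0.66 ± 0.18). Hspa8, the constitutive HSP70, was at 612, 453 and 806 CPM in control and at 362, 403 and 464 CPM in treated libraries (-0.61 ± 0.19). Control replicate 3 was the highest library in both, and without it the differences were -0.40 and -0.38. The count of 3 was 6 without control replicate 1 and 5 without control replicate 2. Heat shock factor 1 recognises repeats of GAA, searched here as GAA, TTC and GAA separated by any 2 bases each, on both strands in the 250 bases before the start. Among 17 matched genes of this list, 4 (23.5%) held it in any of their promoters, namely Hspa8, Hspd1, Hspe1 and Hsph1. Among all 33469 promoters, counted singly, 0.663% held it, again an unlike measure. The share of the list says nothing about treated against control. The windows of the leading members of the list with a match, from RefSeq (GRCr8), are chr12:10427118-10427367 (Hsph1) and chr8:50080264-50080513 (Hspa8), both on the plus strand, 5′ to 3′ with matches in capitals.
Hsph1: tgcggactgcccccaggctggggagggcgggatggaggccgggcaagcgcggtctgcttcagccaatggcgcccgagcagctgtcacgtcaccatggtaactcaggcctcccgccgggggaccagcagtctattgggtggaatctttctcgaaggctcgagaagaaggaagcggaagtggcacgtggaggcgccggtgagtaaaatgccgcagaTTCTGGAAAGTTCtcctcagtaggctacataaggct
Hspa8: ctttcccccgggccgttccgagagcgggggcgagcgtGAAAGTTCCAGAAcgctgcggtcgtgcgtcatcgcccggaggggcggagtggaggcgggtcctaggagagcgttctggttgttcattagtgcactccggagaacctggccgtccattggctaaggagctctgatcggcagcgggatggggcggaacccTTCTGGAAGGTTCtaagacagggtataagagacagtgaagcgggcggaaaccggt
Hspa8 has 2 matches and Hsph1 has 1. The match describes the letters only.

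Genes that follow glucocorticoids and the clock were mixed. Of 19 measured glucocorticoid-responsive genes, 6 stood at an unadjusted p under 0.05 with a lower and 1 with a higher estimate (against 4.75% and 4.05% of all genes), with a median of -0.21. Fkbp5, a chaperone of the glucocorticoid receptor, was at 143, 145 and 140 CPM in control and at 122, 124 and 127 CPM in treated libraries, a small difference without overlap (-0.21 ± 0.06). Angptl4, an inhibitor of lipoprotein lipase, was the higher member (1.04 ± 0.31). The 6 were 1 gene without treated replicate 2, 2 without control replicate 3, and 3 without either control replicate 1 or treated replicate 1. Of 14 clock genes 3 were lower at an unadjusted p under 0.05 (against 4.75% of all genes). Among them was Dbp, an output gene of the clock, at 20.1, 22.3 and 23.2 CPM in control and 16.4, 15.6 and 13.9 CPM in treated libraries (-0.51 ± 0.17). The sources used here do not give the time of day of sampling.

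Markers of tissues that a femur sample can carry in varying amount moved with some of these results. All 19 measured skeletal muscle markers had a higher estimate in treated femora, with a median of 0.63, and 0 of 19 stood at an unadjusted p under 0.05. Their summed level was 504 to 1561 CPM in control, 1225 to 2671 CPM in treated and 1763 to 8719 CPM in ovariectomized libraries, and no marker was at 0 in all libraries. Myh4, a fast myosin heavy chain, was at 108, 244 and 282 CPM in control and at 408, 262 and 550 CPM in treated libraries (0.95 ± 0.50), with overlap, and differed by 1.98 ± 0.51 in ovariectomized minus control. Without control replicate 1 the muscle median was 0.31. Of 15 measured cartilage markers 14 had a lower estimate, with a median of -0.84 and 2 at an unadjusted p under 0.05 (against 4.75% of all genes lower). Their summed level was 907 to 2175 CPM in control and 536 to 1332 CPM in treated libraries. Without treated replicate 2 the cartilage median was -1.83 with 12 genes at an unadjusted p under 0.05, and without control replicate 3 it was -0.45 with none. Col2a1, the collagen of cartilage, was at 420, 244 and 847 CPM in control and at 82.1, 351 and 70.0 CPM in treated libraries, overlapping through treated replicate 2. All 19 measured neutrophil granule markers had a higher estimate, with a median of 0.26 and 2 at an unadjusted p under 0.05 (against 4.05% of all genes higher). Without control replicate 1 these were 0.54 and 12, and without treated replicate 1 the median was 0.10, with 5 of 19 estimates lower and 0 at an unadjusted p under 0.05. Their summed level was 18638 to 32635 CPM in control and 24740 to 37236 CPM in treated libraries. All 28 measured cell cycle genes had a lower estimate, with a median of -0.13 and 3 at an unadjusted p under 0.05 (against 4.75% of all genes lower), or -0.23 and 15 without control replicate 1. Their summed levels overlapped, at 4690 to 6374 CPM in control and 4632 to 5296 CPM in treated libraries. The part of differing tissue content in the results above was not tested.

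**Figure D4:**
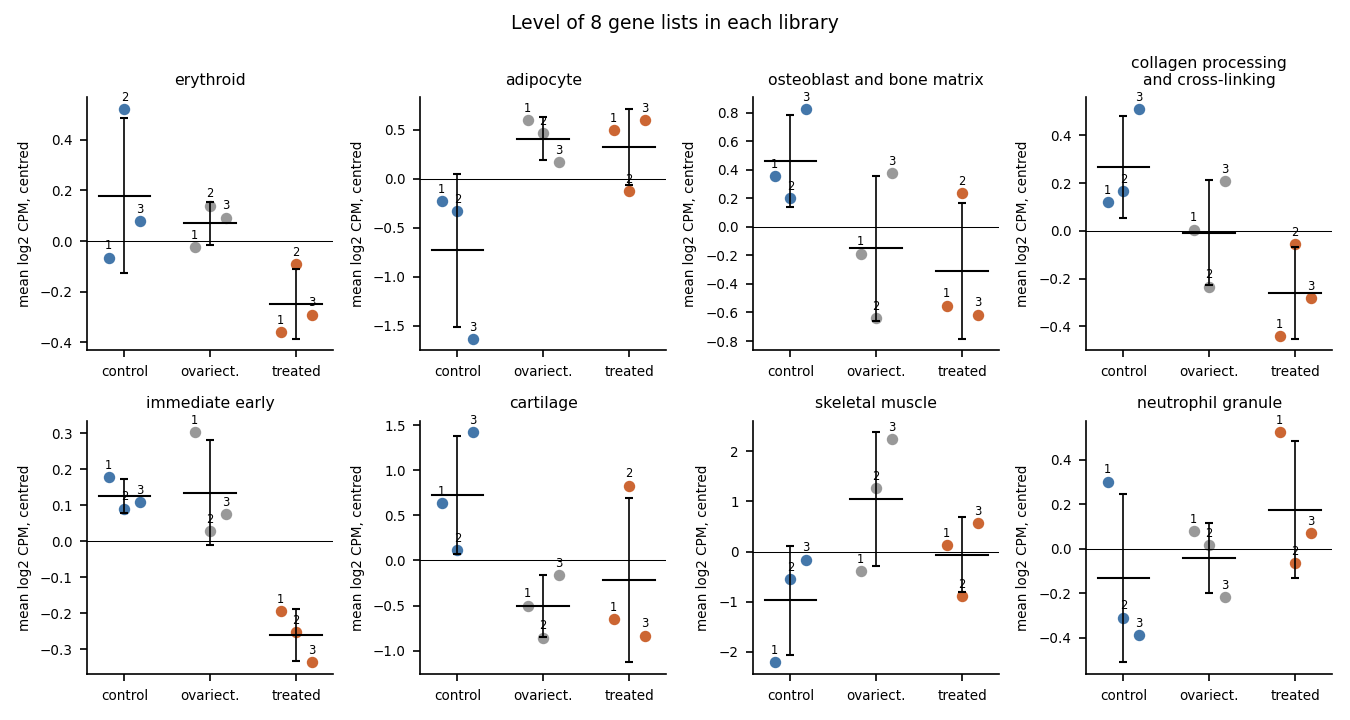
Mean log2 CPM of 8 gene lists in each library, centred on the mean of the 9 libraries (numbers are replicates; bars are the mean and SD of 3 libraries). The immediate early list separates the 3 treated libraries from the 6 others, while cartilage and osteoblast genes are highest in treated replicate 2 among the treated and in control replicate 3 among the controls.

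The list medians kept their sign in each fit that left out a library for the lists plotted. The immediate early median lay between -0.36 and -0.20, with 7 to 9 members at an unadjusted p under 0.05, and the erythroid median between -0.58 and -0.28. The osteoblast median lay between -1.14 and -0.44 and the cartilage median between -1.83 and -0.45.

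**Figure D5:**
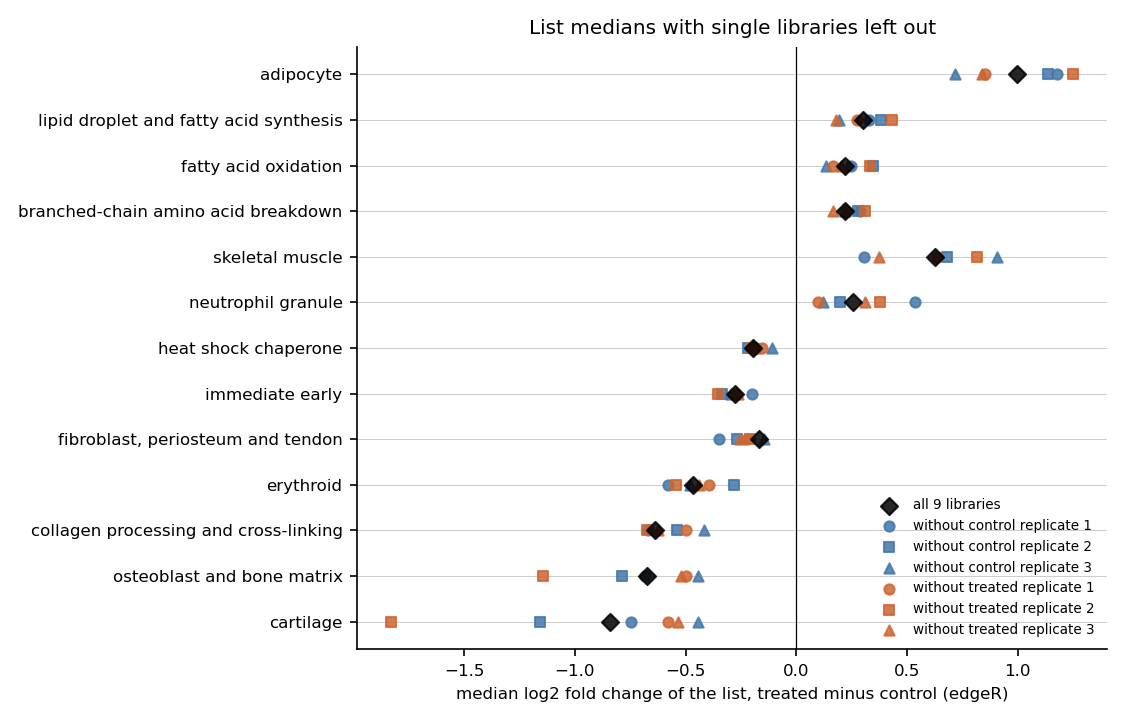
Median log2 fold change of 13 gene lists, treated minus control, with all 9 libraries (black diamonds) and with a single control (blue) or treated (orange) library left out. Immediate early medians stay between -0.36 and -0.20, whereas the cartilage median runs from -1.83 without treated replicate 2 to -0.45 without control replicate 3.

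Beside the ovariectomized libraries, the lists fell into different arrangements, given here as medians without a test. Adipocyte genes were at 1.094 in ovariectomized and 0.996 in treated femora relative to the same control libraries, and osteoblast genes at -0.42 and -0.67. Immediate early genes were at 0.03 and -0.28, erythroid genes at -0.12 and -0.46, and fibroblast genes at 0.03 and -0.17. Skeletal muscle genes were at 1.86 and 0.63, cartilage genes at -1.36 and -0.84, and interferon-responsive genes at 0.86 and 0.10. The summed interferon level stood apart in ovariectomized replicate 1, at 4032 CPM, against 1595 and 1439 CPM in replicates 2 and 3 and 1475 to 1837 CPM in control libraries. For interferon genes, 31 were measured and 1 stood at an unadjusted p under 0.05 in treated against control femora (against 8.81% of all genes).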

How the data were processed

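Poly(A) RNA of rat femur was sequenced in 9 libraries, 3 each from control, ovariectomized and herb-treated rats, grouped by their titles. The authors deposited whole-number counts and FPKM values per gene for every library per the file headers, and the table had 32623 rows, each with a symbol and a position. According to the tools listed per the submitters' processing notes, fastp, HISAT2 and StringTie were used; the sources used here give no versions, genome build or counting settings. The deposited FPKM values are scaled by gene length and depth, and hold 0.0001 where the count is 0. The 6 libraries compared held 57166008 to 66531156 counts.

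Genes whose mean FPKM over the 9 libraries was 1 or more were tested on the deposited counts with edgeR 4.0.16 (R 4.3.3; TMM factors, all 9 libraries in 1 quasi-likelihood fit, contrast of treated minus control, Benjamini-Hochberg adjustment over 13886 genes, threshold 0.05). The common biological coefficient of variation was 0.262. CPM values use the TMM factors. Single shares were compared by an exact permutation test. No 2 libraries agreed within sampling noise (lowest chi-square per degree of freedom 67.7). Same-numbered control and treated libraries did not deviate together. On simulated data for this comparison (13886 genes), the edgeR step was tested and recovered 50% of genes changed 2-fold and 86% of those changed 4-fold, with 7 false calls.

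Alternatives were DESeq2 1.42.0, limma 3.58.1 on log2(FPKM + 1) and log2(FPKM + 0.1), other scaling factors and filters, a robust variance model, a fit of only the 6 libraries, a replicate block, and fits that dropped 1 library at a time. DESeq2 fits and list counts with a library left out were added after seeing the data.

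The members and the 49 gene lists (955 distinct symbols, of which 823 were tested) were chosen with earlier results of these data known. The rule for named genes took 12 genes per direction, first those of largest change past the threshold; open places, here all of them, went to genes of at least 2-fold whose groups did not overlap, by smallest unadjusted p, leaving out placeholder symbols; not every gene so chosen is reported here. Each list described gave at most 4 more members by smallest p, and always named were Lpl, Fos, Myh4, Alas2, Esr1, Col1a1, Runx2, Bglap, Ctsk, Acp5, Tnfrsf11b and Tnfsf11. Members named beyond these, and Il1r1, Pim3 and Ftl1 as single genes, were chosen after their values were seen. Of rows with the same symbol, that of highest mean FPKM was used. Promoters were matched by symbol to RefSeq (GRCr8). Figures were drawn with matplotlib 3.10.9 in Python 3.11.15.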

Additional observations from a re-analysis of the deposited data

How the results depend on the processing

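The count of genes past the adjusted threshold in edgeR, 0 with all libraries, stayed 0 with other scaling factors, filters, a robust variance model, limma on FPKM and the replicate block; it was 1 with only the 6 treated and control libraries, 153 in DESeq2, and 0 to 3 with a library left out. Genes at an unadjusted p under 0.05, 1223 with all libraries, ranged from 684 (without treated replicate 1) to 2027 (without control replicate 1), and DESeq2 calls from 65 (without treated replicate 3) to 575 (without control replicate 1). With the replicate number as a block, 0 genes passed the threshold (smallest adjusted p 0.0667) and 1516 stood at an unadjusted p under 0.05; same-numbered libraries correlated at 0.02, -0.13 and 0.03 in their deviations from the group means, so the numbers did not pair them. On the scale of log2(FPKM + 1), 82.9% of genes at an unadjusted p under 0.05 were higher, against 46.0% in edgeR, and the median of all genes shifted to 0.08; the cause was not tested. With a library left out, Ctsk ranged from -0.69 to 0.024 (without control replicate 3) and Bglap from -1.14 to 0.013 (without treated replicate 3), each crossing 0 in 1 fit; the cause was not tested. The haemoglobin difference ranged from -5.77 to -3.36 percentage points. For 17 lists with a described difference, 272 medians were recomputed: 256 moved by less than the spread between libraries, 16 by more, and none changed sign. Over all 49 lists, 21 had a median that crossed 0 with some library left out; among those reported, the osteoclast median went from -0.05 to 0.01 (without control replicate 3), the inflammatory median from 0.06 to -0.03 (without control replicate 2) and the interferon median from 0.10 to -0.03 (without treated replicate 1). How depth limits the calls was not tested.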

Other observations

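The annotation column of the deposited table assigns genes to KEGG pathways, and the pathways named here were chosen after their values were seen, so their counts are a description. Of 70 measured genes of the peroxisome, the organelle that shortens very long and branched fatty acids, 55 had a higher estimate in treated than in control femora, and 16 stood at an unadjusted p under 0.05, all higher (against 4.05% of all genes). They included Phyh (0.55 ± 0.11), which starts the breakdown of phytanic acid, the fatty acid transporter Abcd2 (1.44 ± 0.42), and Pex3 (0.44 ± 0.10), which is needed to form the peroxisomal membrane. Phyh, Pxmp2 and Abcd2 were also higher in ovariectomized minus control (0.75, 1.29 and 1.04), Pex3 was at 0.08 there, and Pxmp2 and Abcd2 had the library order of the adipocyte genes. Of 48 genes of PPAR signalling 37 had a higher estimate and 16 stood at an unadjusted p under 0.05, all higher (against 4.05% of all genes), with a median of 0.24. The 19 adipocyte markers, all with a higher estimate and a median of 0.996, had a summed level of 937 to 2001 CPM in control and 2260 to 3641 CPM in treated libraries; their part in the peroxisome and PPAR counts was not tested. Of 62 genes of ECM-receptor interaction 41 had a lower estimate, and 13 stood lower and 3 higher at an unadjusted p under 0.05 (against 4.75% and 4.05% of all genes). Bnip3, a gene of mitophagy, was at 20, 21.6 and 13.6 CPM in control and at 37.3, 26.1 and 43.3 CPM in treated libraries (0.95 ± 0.22, adjusted p = 0.47 in edgeR and 0.01 in DESeq2), and at 36.7 to 45.1 CPM in ovariectomized libraries.

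In a few rows a single library lay far from the others of its group. Cpne1 held 11084, 0 and 7851 counts in the control, 10495, 0 and 8451 in the ovariectomized and 0 in each of the 3 treated libraries. A row of Rbm12, on the same chromosome and of nearly the same length, held 11371, 9093 and 8133 counts in control, 10759, 9461 and 8719 in ovariectomized and 14614, 10831 and 11317 in treated libraries, so that where Cpne1 was not 0 the counts of the 2 rows were close. Cpne1 had the smallest adjusted p of all genes in DESeq2 (2.7e-09) and an adjusted p of 0.52 in edgeR. Gp1bb, a platelet receptor subunit, was at 38.3 CPM in control replicate 3 and between 1.5 and 2.94 CPM in the other 8 libraries. Igfbp2, a binding protein of insulin-like growth factors, was at 36.9, 37.3 and 2.97 CPM in control, at 47.0, 0 and 0.12 CPM in ovariectomized and at 0.33, 0.06 and 2.39 CPM in treated libraries. The cause of these patterns was not tested.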
